A study of Mus musculus with 8 samples.

Results

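The genes described here encode the parts of the respiratory chain and of the mitochondrial ribosome that are made from nuclear DNA, with the import machinery of the mitochondrial membranes. They were chosen by symbol (names starting with Nduf, Cox and a digit, Atp5, Uqc, Sdha to Sdhd, Mrpl or Mrps and a digit, Timm or Tomm). No measured value entered this rule, though earlier results of these data were known when the genes were chosen. Of the 3160 genes analysed, 43 had such a name, out of 200 protein-coding symbols in the mouse annotation that match. The respiratory chain accounted for 30 of them, the mitochondrial ribosome for 11 and import for 2. By role there were 15 subunits of complex I, 3 of complex III, 2 of complex IV (cytochrome c oxidase), 7 of the ATP synthase, 3 assembly factors, 6 proteins of the large and 5 of the small mitoribosomal subunit, 1 inner and 1 outer membrane import gene. Complex II had 0 members in the table. The authors had filtered the table on expression and on agreement between replicates, so the 43 genes are those that passed that filter.

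The study followed mouse embryonic stem (ES) cells of the line E14Tg2A, from strain 129/Ola, as they leave the naive state. ES cells were grown on gelatin with serum and the cytokine LIF and sampled at 0 days in vitro. Epiblast-like aggregates (ELA) were the same cells after 2 days floating in chemically defined minimal medium with N2 and B27 supplements and without LIF. All cells of both stages were treated with cycloheximide, which stalls ribosomes, before lysis, and ribosomes were pulled down with an antibody against the endogenous large-subunit protein Rpl10a (Rpl10a-IP). Part of the same lysate, kept before the pull-down, gave the total RNA (input). Input and Rpl10a-IP had 2 libraries each at both stages, 8 in all. The labels give 1 cell line and no separate donors, so p-values measure the spread between these libraries. That spread was estimated for each gene over all groups together and drawn towards that of the other genes.

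Oxidative phosphorylation rests on complexes whose subunits come from both genomes. Nuclear-encoded subunits are translated by cytosolic ribosomes, which carry Rpl10a, and are imported through the TOM and TIM complexes, while the few subunits encoded by mitochondrial DNA are translated inside the organelle by the mitochondrial ribosome. Many of the nuclear-encoded subunits are very small proteins, and the core enzymes are larger. Pluripotent cells are known to alter the balance of glycolysis and respiration as they pass from the naive to the primed state.

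The coding sequences of the members differ widely in length, and the differences on ribosomes given below ran along with that length, so the complete coding sequences of a pair at the short end are printed, with the start and stop codons in capitals. They are those of Cox17 (chromosome 16, 38346983 to 38352763, GRCm38.p6), a copper chaperone of cytochrome c oxidase and the shortest member at 192 coding bases, and of Ndufc1 (chromosome 3, 51405479 to 51408955), an accessory subunit of complex I with 231 coding bases. Both were read from the GENCODE vM1 transcripts.
Cox17: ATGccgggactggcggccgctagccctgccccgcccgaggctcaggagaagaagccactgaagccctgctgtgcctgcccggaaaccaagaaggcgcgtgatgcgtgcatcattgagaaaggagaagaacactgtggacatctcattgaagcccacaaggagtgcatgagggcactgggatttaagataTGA
Ndufc1: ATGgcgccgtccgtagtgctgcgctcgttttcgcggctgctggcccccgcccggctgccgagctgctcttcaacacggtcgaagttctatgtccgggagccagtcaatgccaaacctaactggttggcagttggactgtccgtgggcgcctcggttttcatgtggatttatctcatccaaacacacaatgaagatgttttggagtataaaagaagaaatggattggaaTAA

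Promoters were looked at because 34 of the 43 members fell in total RNA. RefSeq promoter windows (GRCm38.p6, 250 bases before to 50 after the annotated start) were given for 35 of the 43 genes, as 38 windows. They were searched on both strands for the palindrome-like NRF1 element, for the letters CCGGAAG, bound by ETS factors such as GABP, and for AAGATGGCG, bound by YY1, all of them known regulators of nuclear genes for mitochondrial proteins. The NRF1 element was in 15.8% of the members' windows and in 4.6% of all 32851 windows. The ETS letters were in 13.2% and 8.86%, and the YY1 letters in 7.89% and 1.4%. The genes with the YY1 letters were Ndufa9, Ndufc1 and Ndufs4, and 6 had the NRF1 element, among them Ndufa6, Mrps9 and Mrpl12. The 3 YY1 windows and these 3 NRF1 windows of 30 bases are shown on the strand of the gene, with the match in capitals.
Ndufa9: attgtgggagAAGATGGCGgccgccgtccg
Ndufc1: cctgcggaacAAGATGGCGccgtccgtagt
Ndufs4: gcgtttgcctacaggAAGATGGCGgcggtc
Ndufa6: ccgtggcaccGCGCGTGCGCacgctgaagg
Mrps9: tgggaggtctGCGCCTGCGCagtctccagg
Mrpl12: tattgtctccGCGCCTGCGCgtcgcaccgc
The windows lie at chr6:126849096-126849125 (Ndufa9, minus strand), chr3:51408914-51408943 (Ndufc1, minus), chr13:114388045-114388074 (Ndufs4, minus), chr15:82354249-82354278 (Ndufa6, minus), chr1:42851218-42851247 (Mrps9, plus) and chr11:120484546-120484575 (Mrpl12, plus). In all 3 YY1 windows the ATG inside the capitals is the start codon, since the bases from there on are those with which the coding sequence begins, as the Ndufc1 sequence above shows. The match starts 30, 23 and 36 bases into the transcript of Ndufa9, Ndufc1 and Ndufs4. These 3 genes did not move alike, as given further on: Ndufa9 gained and Ndufc1 lost ribosome enrichment by more than any other member that changed in its direction.

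The Rpl10a-IP libraries held 16076207 to 23483388 reads over the 3160 genes and the ES input libraries 3898414 and 5380139. The ELA input libraries held 159587 and 410192, which left 4 to 248 and 6 to 548 reads per member. As the spread was shared over all groups, standard errors (SE) and p-values of results with ELA input can fall below the counting error of so few reads. ELA input replicate 1, left out in the study's methods, enters every result that needs ELA input here. Without it, 36 in place of 35 members were called in the change in total RNA, 34 in place of 35 in ELA enrichment and 26 in place of 25 in the change in enrichment, and without ELA input replicate 2 the counts were 37, 32 and 30. Over these genes, which the authors had filtered for agreement between replicates, the ELA inputs differed from each other by no more than counting noise, whereas the study's methods describe replicate 1 as less complex, more duplicated and poorly correlated with the other input. At both stages a label of the second input sample reads Replicate 1 although its title numbers it 2, so whether they are separate samples was not settled. Of the stage markers, all 5 naive ES markers that were measured, of 12 listed, fell in total RNA (median log2 change −2.89), and the only measured primed epiblast marker, Dnmt3b, rose by 2.62. Of the 3 measured markers of pluripotency at both stages (5 listed), Pou5f1 fell (−1.18), Sall4 rose (0.25) and Lin28a had no call (0.11). Of the markers of other cells, the primitive endoderm gene Lama1 (1 of 7 measured) and the fibroblast gene Vim (1 of 5) had log2 changes in total RNA of −0.80 and −0.90, the neural gene Nes (1 of 4) had 2.51, and 0 of 2 mesoderm genes were measured. The part of these cells in the results was not tested.

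In total RNA, the members fell. Together they took 1.21% (95% Wilson interval 1.20 to 1.22%) and 1.12% (1.11 to 1.13%) of the ES input reads over the 3160 genes. In ELA input they took 0.774% (0.732 to 0.818%) and 0.729% (0.704 to 0.756%). The Rpl10a-IP libraries gave 1.19% and 1.24% in ES cells and 0.793% and 0.772% in ELA, so in both fractions the ELA libraries lay below the ES libraries without overlap. Intervals cover counting error only. Shares of bulk reads over these filtered genes do not tell less RNA per cell from fewer cells that make it.

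Gene by gene, limma called 34 of the 43 lower and 1 higher in ELA input than in ES input (Benjamini-Hochberg adjusted p under 0.05 over all 3160 genes), where 35.8% of all genes were called lower and 34.5% higher. The median log2 change was −0.63 in the members and −0.02 over all genes. The table holds only genes that passed a filter on replicate agreement, and the effect of that filter on the calls was not tested. All 7 ATP synthase genes, all 3 of complex III and both of complex IV fell. In complex I 12 of 15 fell, in the assembly factors 2 of 3, in the large mitoribosomal subunit 4 of 6 and in the small subunit 4 of 5. The import genes had 0 falls, 1 rise and 1 gene without a call. With a correction for transcript length and GC content, described further on, some of these falls lost their call. They were Atp5o (−0.026), Cox17 (−0.12), Mrpl13 (−0.074), Mrps9 (−0.084), Ndufa10 (−0.16) and Mrps7 (−0.23). Without it, the calls of Atp5a1 and Atp5g1 held in 14 of 15 and 13 of 14 alternative fits, with values up to −0.23 and −0.33. By class, the medians were −0.88 for the respiratory chain, −0.54 for the mitochondrial ribosome and 0.52 for the 2 import genes.

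The deepest fall in total RNA was that of Ndufa9, an accessory subunit at the junction of the 2 arms of complex I (chromosome 6, 126821863 to 126849144). Its normalised count, that is its reads scaled to the depth of the library, was 835 and 808 in ES input and 163 and 201 in ELA input, so the stages did not overlap (log2 change −2.17, SE 0.12; limma, adjusted p = 4.3e-17). The ELA values stand for only 6 and 19 reads. The lncRNA 1700018A23Rik overlaps Ndufa9, and the strand of counting is not stated. Next came the 2 subunits of cytochrome c oxidase. Cox7a2 had 475 and 404 in ES input and 163 and 95.4 in ELA input (6 and 9 reads), a log2 change of −1.80 (SE 0.18; limma, adjusted p = 1.0e-10). Cox7b, on the X chromosome, had 2231 and 1867 against 571 and 795, a log2 change of −1.60 (SE 0.13; limma, adjusted p = 3.9e-13). Small genes of this kind often have near-identical pseudogenes, and the mapping allowed a read up to 2 places, so such counts are uncertain.

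The most abundant member per kilobase of transcript was Atp5b, the catalytic β subunit of the ATP synthase (chromosome 10, 128083307 to 128090388). It had 5986 normalised counts per kilobase in ES input and 3254 in ELA input. Its counts were 12065 and 10872 in ES input and 6661 and 5809 in ELA input, a fall of 1.84-fold (log2 change −0.88, SE 0.10; limma, adjusted p = 1.4e-09). Over all 30 respiratory chain genes the median level per kilobase was 612 in ES input and 340 in ELA input, and over the 11 mitoribosomal genes 277 and 178.

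A single member rose in total RNA, Timm21, a subunit of the inner membrane translocase that also takes part in respiratory chain assembly (chromosome 18). ES input held 130 and 130 and ELA input 353 and 265, a log2 change of 1.23 (SE 0.15; limma, adjusted p = 5.9e-09). It overlaps Fbxo15. Tomm70a, the outer membrane receptor for carrier proteins (chromosome 16, 57121714 to 57154530), had 3252 and 3739 in ES input and 2909 and 3191 in ELA input, with no call (log2 change −0.19, SE 0.11; limma, adjusted p = 0.10). It was called lower with the deposited size factors (−0.29), without ELA input replicate 2 (−0.26) and with the correction for transcript length and GC content (−0.73). Also without a call were Ndufc1, Ndufa7 and Ndufb8 of complex I, Mrpl12 and Mrpl18, Mrps21, and Uqcc1, an assembly factor of complex III. With that correction, Ndufc1 (0.65), Ndufa7 (0.70), Ndufb8 (0.34), Mrpl18 (0.41) and Mrps21 (0.45) were called higher beside Timm21 (1.54).

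In ribosome-bound RNA the members fell as well. Here 36 of the 43 were lower and 1 higher in ELA Rpl10a-IP than in ES Rpl10a-IP, where 41.9% of all genes were called lower and 41.6% higher. The median log2 change was −1.07 in the members, against −0.63 in total RNA, and −0.01 over all genes. With a correction for transcript length and GC content, described further on, this order turned, with medians of −0.18 in ribosome-bound and −0.46 in total RNA. Before that correction it was −1.09 in the respiratory chain (26 of 30 lower) and −1.08 in the mitochondrial ribosome (9 of 11 lower). All 6 genes of the large mitoribosomal subunit fell, and 3 of 5 of the small one. After the correction Mrpl1 (−0.15), Mrpl13 (−0.0071) and Mrpl46 (−0.17) of these had no call, and Mrps21 was called higher (0.55).

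**Figure D1:**
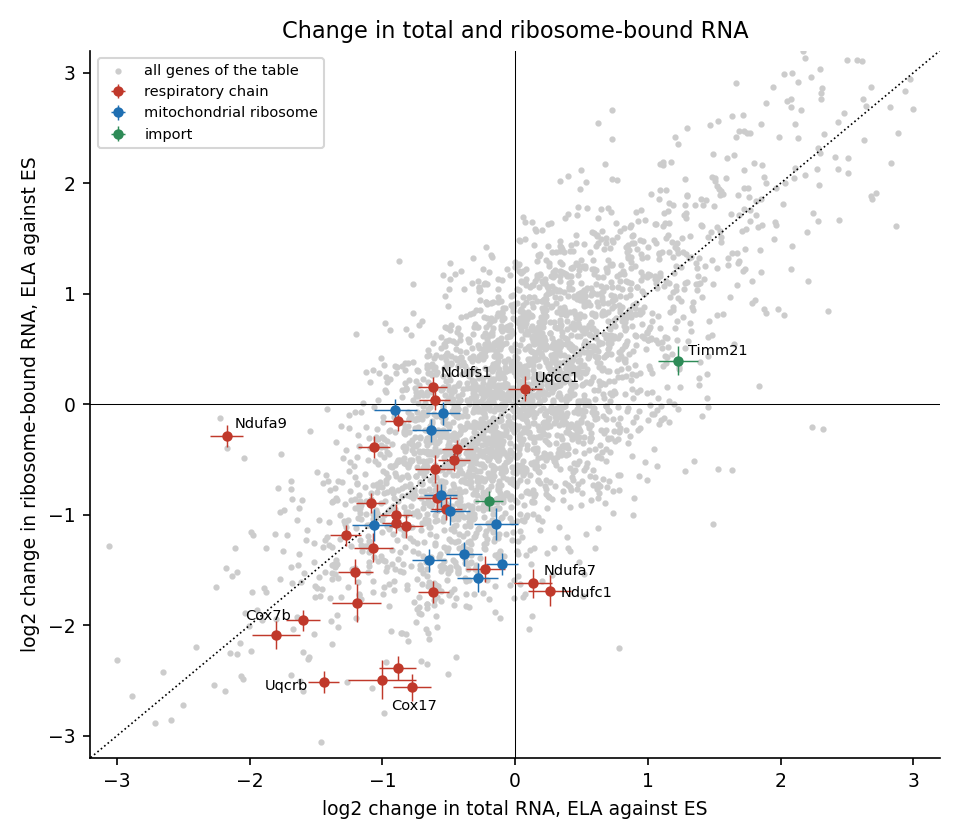
Log2 change between ELA and ES in total RNA (x axis, input libraries) and in ribosome-bound RNA (y axis, Rpl10a-IP libraries). Coloured points are 42 of the members with standard errors, grey points all genes (35 lie beyond the axes), and the dotted line marks equal change. Most coloured points lie left of 0 and below 0, with Ndufa9 far above the line and Ndufc1, Ndufa7 and Cox17 far below it.

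The largest falls on ribosomes were those of Cox17, Uqcrb and Atp5g1, whose coding sequences have 192, 336 and 411 bases. Cox17 had 388 and 370 in ES Rpl10a-IP and 59.1 and 67.2 in ELA Rpl10a-IP, a fall of 5.91-fold (log2 change −2.56, SE 0.12; limma, adjusted p = 6.5e-47). Uqcrb, a small subunit of complex III, had 1652 and 1778 against 298 and 296 (log2 change −2.51, SE 0.10; limma, adjusted p = 2.4e-57). Atp5g1, a gene for the membrane ring of the ATP synthase, had 151 and 158 against 37.3 and 19.1 (log2 change −2.49, SE 0.18; limma, adjusted p = 8.3e-29). In none of the 3 did the stages overlap. With the correction for length and GC content Cox17 had −0.70 and Uqcrb −0.76, and the deepest falls were those of Atp5g1 (−2.71), Mrps25 (−1.85) and Tomm70a (−1.40). The last 3 have the longest transcripts of the members (4715, 6073 and 5886 bases), and the correction runs on transcript length, not on coding length. At the other end of the changes on ribosomes, before the correction, Ndufs1, the largest subunit of complex I, had 2119 and 2214 in ES Rpl10a-IP and 2391 and 2386 in ELA Rpl10a-IP (log2 change 0.15, SE 0.09; limma, adjusted p = 0.10). Uqcrc2, a core protein of complex III, had 1005 and 1132 against 1094 and 1080 (log2 change 0.04, SE 0.10; limma, adjusted p = 0.70), where the stages overlapped. Timm21 was again the single rise, from 164 and 169 to 223 and 211 (log2 change 0.39, SE 0.13; limma, adjusted p = 0.0043). With the deposited size factors it had no call (0.27), and with the correction 11 members were called higher.

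Ribosome enrichment is the Rpl10a-IP count of a gene over its input count, relative to the other genes. In ES cells the members stood near the rest of the table before the correction for length and GC content. After it 20 of the 43 were enriched on ribosomes and 7 depleted, where 19.0% and 20.5% of all genes were. The median log2 enrichment was then 0.14. The values that follow are those without it. The mean ratio ran from 0.557 (Atp5d, the δ subunit of the ATP synthase) to 1.45 (Mrpl1), with a median of 0.980. Of the 43, 11 were enriched on ribosomes, where 20.5% of all genes were, and 9 depleted, where 18.7% were. These counts fell to 5 and 6 without ES Rpl10a-IP replicate 2 or with all 8 libraries, to 6 and 6 without ES Rpl10a-IP replicate 1 and to 9 and 4 without ES input replicate 1. The largest enrichments were those of Mrpl1 (ratios 1.38 and 1.51; log2 0.54), Ndufv2 (1.27 and 1.41; 0.43) and Uqcrc2 (1.29 and 1.37; 0.42), and the largest depletions those of Atp5d (0.554 and 0.560; −0.83), Ndufc1 (0.624 and 0.625; −0.67) and Mrpl51 (0.628 and 0.705; −0.58).

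In ELA the same genes spread apart. The mean ratio ran from 0.159 (Ndufc1) to 4.05 (Ndufa9), with a median of 0.793. Limma called 24 of the 43 depleted and 11 enriched, where 37.2% and 36.8% of all genes were. The median log2 enrichment was −0.34 in the members and −0.01 over all genes. With the correction for length and GC content the direction turned, to 13 depleted and 19 enriched and a median of 0.09. Among the enrichments over 1 on the log2 scale were those of Ndufa9 (2.01), Ndufs1 (1.05), Mrps30 (1.05) and Uqcrc2 (1.04). The deepest depletions were those of Ndufc1 (−2.63), Cox17 (−2.23) and Ndufa7 (−2.06).

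**Figure D2:**
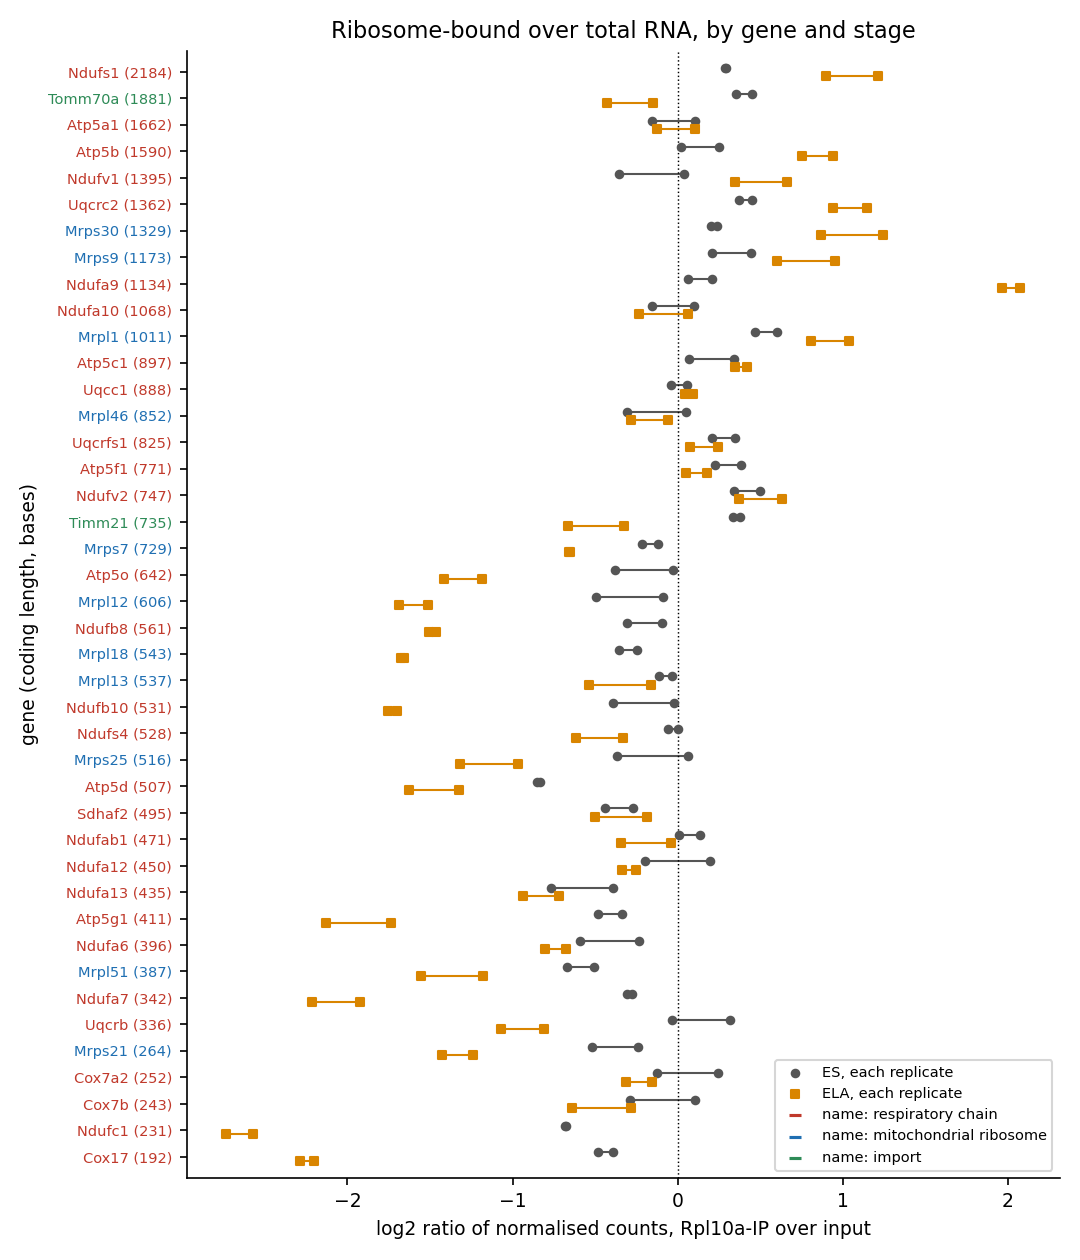
Log2 ratio of normalised counts, Rpl10a-IP over same-numbered input, for each replicate of ES cells (grey circles) and ELA (orange squares), with genes ordered by coding length and names coloured by class. The ES ratios lie close to 0, while the ELA ratios lie far to the left for Cox17 and Ndufc1 at the bottom (below −2) and farthest to the right for Ndufa9 (near 2), with Ndufs1 at the top near 1 and Tomm70a and Atp5a1 just under it left of or around 0.

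The change in ribosome enrichment between the stages was tested as the interaction of stage and fraction. It was negative in 17 of the 43 and positive in 8, where 27.7% and 28.4% of all genes were called. The median log2 change was −0.29 in the members and 0.01 over all genes. With the correction it turned as well, to 12 negative and 14 positive and a median of 0.07. Respiratory chain genes were called in both directions (10 lower and 6 higher of 30, median −0.25), as were mitoribosomal genes (5 lower and 2 higher of 11, median −0.48), and both import genes were lower (−0.85 for Timm21, −0.69 for Tomm70a).

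Complex I held both ends of the range. Among its measured subunits, Ndufs1, Ndufv1 and Ndufv2 belong to the catalytic core that carries electrons from NADH, and 11 are accessory subunits (this division was made after the values were seen). Ndufs1, Ndufv1 and Ndufv2 were each enriched on ELA ribosomes, with log2 ratios of 0.50 to 1.05. From ES cells to ELA, Ndufs1 gained enrichment by 0.76 (SE 0.16) and Ndufv1 by 0.66 (SE 0.18), while Ndufv2 had 0.081 with no call. After the correction for length and GC content Ndufv2 was called as a gain (0.61). Ndufs1 had ratios of 1.22 and 1.22 in ES cells and 2.31 and 1.86 in ELA. Its total RNA fell (log2 change −0.62), and its ribosome-bound RNA had a log2 change of 0.15 with no call. Among the accessory subunits all 11 fell on ribosomes, with a median of −1.30, 5 lost enrichment and 1, Ndufa9, gained it, where 41.9% of all genes fell on ribosomes. With the correction for transcript length and GC content, Ndufa6, Ndufa7, Ndufa12, Ndufb8 and Ndufs4 had no call in ribosome-bound RNA (−0.18 to 0.022), and Ndufa9 was called higher there (0.55).

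Ndufa9 had ratios of 1.04 and 1.16 in ES cells and 4.21 and 3.90 in ELA, the largest gain of any member (log2 change 1.88, SE 0.18; limma, adjusted p = 2.2e-10). Its Rpl10a-IP counts moved little, from 872 and 935 to 686 and 785, and the change lay in the ELA input with its 6 and 19 reads. Ndufc1 was its opposite, with ratios of 0.624 and 0.625 in ES cells and 0.168 and 0.150 in ELA (log2 change −1.96, SE 0.23; limma, adjusted p = 1.4e-08). Its input counts were 290 and 271 in ES cells and 381 and 297 in ELA, and its Rpl10a-IP counts 181 and 169 against 63.9 and 44.6. Ndufa7 behaved in the same manner, with input counts of 288 and 298 against 326 and 318 and Rpl10a-IP counts of 237 and 241 against 86.0 and 68.4 (log2 change in enrichment −1.76, SE 0.20; limma, adjusted p = 9.7e-09). Ndufb10 (−1.51), Ndufb8 (−1.28) and Ndufs4 (−0.44) were the other losses of complex I. The call of Ndufs4 held in 11 of 16 alternatives, and with the correction the value was 0.072 with no call.

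**Figure D3:**
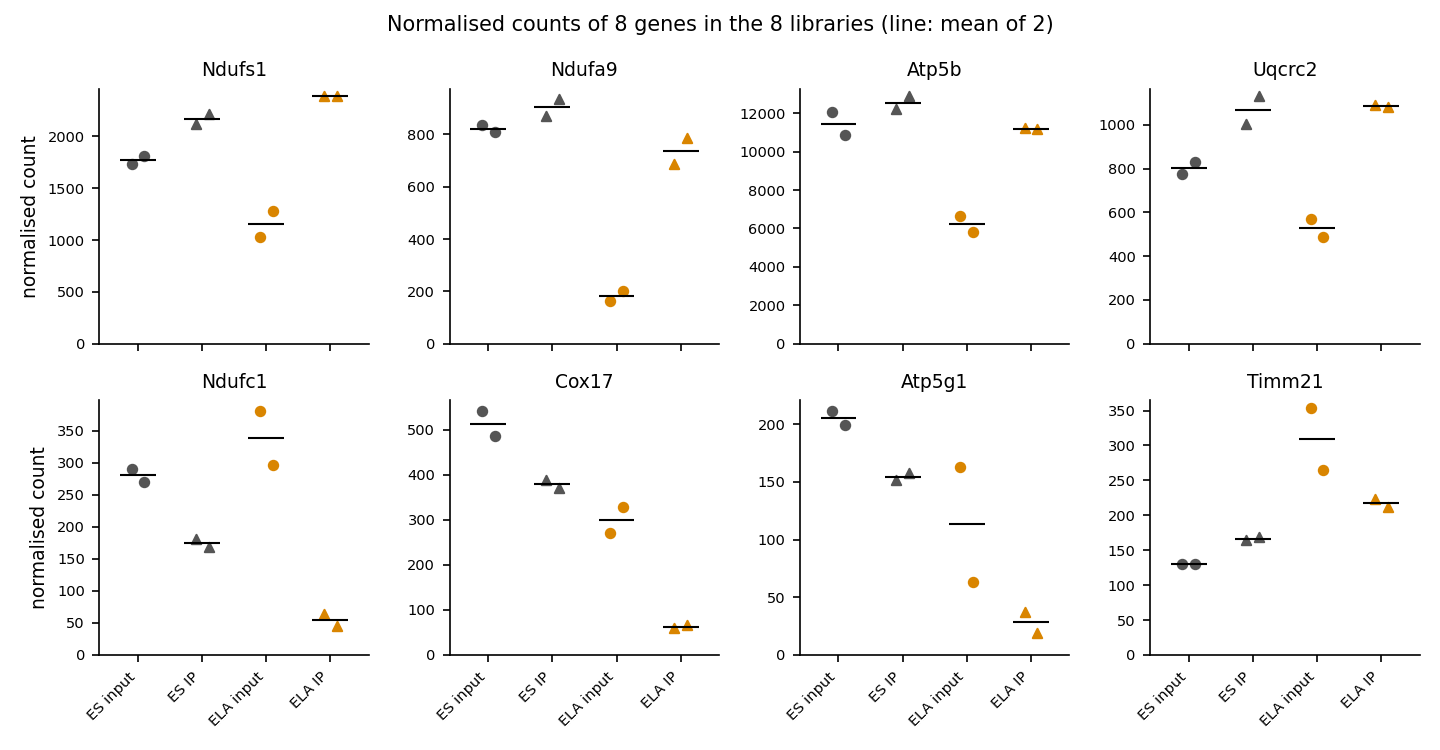
Normalised counts (y axes start at 0) of 8 genes in each library: circles are input, triangles Rpl10a-IP, grey ES cells, orange ELA, and the line is the mean of 2. In Ndufs1, Ndufa9, Atp5b and Uqcrc2 the ELA input lies low and the ELA Rpl10a-IP near the ES level, while in Ndufc1, Cox17 and Atp5g1 the ELA Rpl10a-IP is the lowest group and in Timm21 both ELA groups lie above both ES groups.

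The ATP synthase and complex III also held both gains and losses. In the ATP synthase, Atp5b had ratios of 1.01 and 1.19 in ES cells and 1.68 and 1.92 in ELA, and gained 0.71 (SE 0.14; limma, adjusted p = 6.6e-05). Atp5a1, the α subunit (0.02), Atp5c1, the γ subunit (0.18), and Atp5f1, a subunit of the peripheral stalk (−0.19), had no call. After the correction for length and GC content Atp5c1 was called as a gain (0.67). Atp5g1 (−1.49, SE 0.36), Atp5o, the stalk subunit OSCP (−1.09, SE 0.17), and Atp5d (−0.61, SE 0.26) lost enrichment, with 6 and 6 ELA input reads for Atp5g1 and 4 and 7 for Atp5d. Atp5g1 had −0.82 without ELA input replicate 1 and −2.17 without replicate 2, both called. The call of Atp5d (limma, adjusted p = 0.046) held in 7 of 15 alternatives, with −0.34 and no call without ELA input replicate 1 and −0.21 and no call after the correction for length and GC content. In complex III, Uqcrc2 gained 0.63 (SE 0.17), Uqcrb lost 1.08 on the log2 scale (change −1.08, SE 0.17; 0.24 with no call after the correction), and Uqcrfs1, the Rieske iron-sulphur protein, had no call (−0.12). Neither Cox7a2 (−0.29) nor Cox7b (−0.37) was called, though Cox7b was with the replicate block (limma, adjusted p = 0.032). With the correction both were called with the other sign (0.49 and 0.48). Of the assembly factors, Cox17 lost enrichment (−1.79, SE 0.20; limma, adjusted p = 4.2e-09), from ratios of 0.717 and 0.762 to 0.218 and 0.205, while Sdhaf2, for complex II (0.01), and Uqcc1 (0.06) had no call.

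In the mitochondrial ribosome, Mrps30 had ratios of 1.18 and 1.15 in ES cells and 2.37 and 1.83 in ELA (log2 change 0.83, SE 0.22; limma, adjusted p = 0.0020). Without ELA input replicate 1 the change was 0.44 and without replicate 2 it was 1.23, both called. Mrps9 gained 0.45 (SE 0.18; limma, adjusted p = 0.036), and Mrpl1, with 0.39, had no call (adjusted p = 0.11 by limma). The call of Mrps9 was lost without ES input replicate 1, either ES Rpl10a-IP replicate or ELA Rpl10a-IP replicate 2 (0.30 to 0.48). With the replicate number as a block Mrpl1 passed the threshold (limma, adjusted p = 0.045), and after the correction for length and GC content it was called as well (0.61). Losses were those of Mrpl18 (−1.36, SE 0.17), Mrpl12, a protein of the stalk that recruits translation factors (−1.30, SE 0.22), Mrps25 (−0.98, SE 0.19), Mrps21 (−0.95, SE 0.23) and Mrpl51 (−0.77, SE 0.18). Mrpl18 had 1418 and 1239 in ES input and 1142 and 1346 in ELA input, which overlap, and 1107 and 1045 against 358 and 427 in Rpl10a-IP, which do not. It overlaps Tcp1. Mrpl13 (−0.28), Mrpl46 (−0.04) and Mrps7 (−0.48; adjusted p = 0.051 by limma) had no call, though Mrps7 was called with the block (limma, adjusted p = 0.032).

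Set side by side, the 3 tests sorted the members into a few patterns. In 17 genes total and ribosome-bound RNA both fell with no call on enrichment, as in Ndufv2, Atp5a1, Cox7b and Mrpl46, a pattern shown by 14.5% of all 3160 genes. In 9 both fell and enrichment fell too, as in Cox17, Uqcrb and Atp5o (8.42% of all genes). In 7 ribosome-bound RNA and enrichment fell with no call in total RNA, as in Ndufc1, Ndufa7 and Mrpl18 (7.85%). In 8 enrichment rose while total RNA fell: in 5 of them ribosome-bound RNA had no call (Ndufs1, Uqcrc2, Atp5b, Mrps30 and Mrps9; 3.7% of all genes), and in 3 it also fell, as in Ndufa9 and Ndufv1 (3.23%). Uqcc1 had no call in any of the 3, and Timm21 rose in both fractions and lost enrichment. The tests share libraries, so the patterns are not independent of each other. With the correction for transcript length and GC content, many of these genes changed pattern. In total RNA Cox17 (−0.12) and Atp5o (−0.026) had no call, and Ndufc1, Ndufa7 and Mrpl18 were called higher. In ribosome-bound RNA Ndufs1 (0.51), Uqcrc2 (0.66), Atp5b (0.21), Mrps30 (0.49) and Mrps9 (0.64) were called higher. In enrichment Ndufv2 (0.61) and Cox7b (0.48) were called higher, while Atp5a1 kept its pattern.

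Coding length ran along with these differences. The members' coding sequences had a median of 606 bases (192 to 2184), and those of all 3119 genes with a known length 1668. Over the 43 members, the Spearman correlation of coding length was 0.714 with the change in enrichment, 0.778 with the change in ribosome-bound RNA, 0.764 with enrichment in ELA and 0.656 with enrichment in ES cells, but 0.0587 with the change in total RNA. Over all genes the values were 0.643, 0.628, 0.645, 0.262 and 0.203. Transcript length, on which the correction below rests, ran along less closely in the members. It gave 0.412 with the change in enrichment and 0.536 with that in ribosome-bound RNA (0.452 and 0.602 over all genes). These are descriptions across genes, which share libraries and are not independent replicates.

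**Figure D4:**
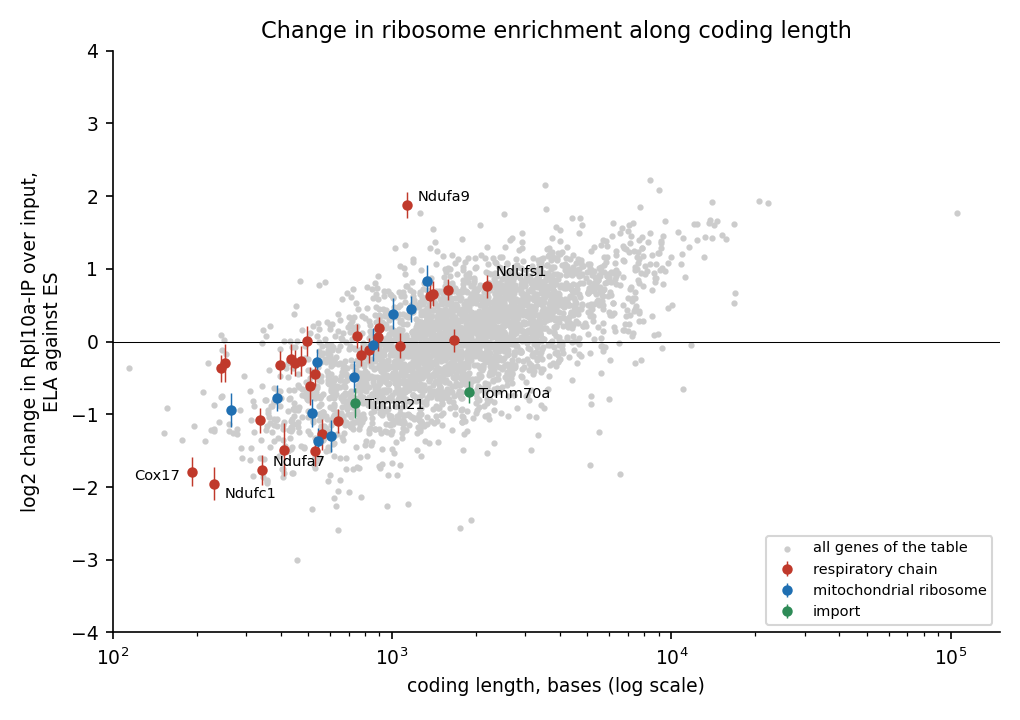
Log2 change in Rpl10a-IP over input between the stages (y axis) along coding length in bases (x axis, log scale), with standard errors for 42 of the members (coloured by class) and all genes with a known coding length in grey. The coloured points rise from about −2 at the short end (Cox17, Ndufc1) to near 0.8 at the long end (Ndufs1) within the grey band, with Ndufa9 above it and Tomm70a low for its length. Cox7b (243 bases, −0.37) and Cox7a2 (252 bases, −0.29) lie well above Cox17 and Ndufc1.

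The members were then set beside other genes of like coding length (bounds chosen after the values were seen). At most 600 coding bases, enrichment fell in 13 of 21 members and 188 of 254 other genes and rose in 0 and 4, with medians of −0.77 and −0.89. Over 600 and up to 1000 bases it fell in 3 of 10 members and 256 of 450 other genes and rose in 0 and 20, with medians of −0.15 and −0.50. Above 1000 bases it rose in 8 of 12 members and 861 of 2372 other genes and fell in 1, Tomm70a, and 405, with medians of 0.65 and 0.18. In total RNA the order differed. At most 600 bases, 16 of 21 members fell and 0 rose, against 122 and 69 of the 254 other genes (medians −0.65 and −0.23). Over 600 and up to 1000 bases 7 of 10 fell and 1 rose, against 200 and 126 of 450 (−0.76 and −0.19), and above 1000 bases 11 of 12 fell and 0 rose, against 762 and 873 of 2372 (−0.63 and 0.04). The 41 cytosolic ribosomal protein genes of the table, also short, were depleted together: in ribosome-bound RNA 40 fell (median −1.60) and in enrichment 38 fell (median −1.11).

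Removing from every library its trend along transcript length and then along GC content, in a fit with the replicate number as a block, moved the results on ribosomes and left most of the fall in total RNA. In total RNA 29 members were then lower and 6 higher (36.4% and 33.8% of all genes), with a median of −0.46. In ribosome-bound RNA 22 were lower and 11 higher (38.4% and 39.9%), with a median of −0.18. The change in enrichment was negative in 12 and positive in 14 (27.5% and 27.1%), with a median of 0.07. Enrichment in ELA was lower in 13 and higher in 19 (38.6% and 35.4%), and in ES cells lower in 7 and higher in 20 (20.5% and 19.0%). Ndufa9 (2.20), Ndufc1 (−1.33), Cox17 (−0.58) and Tomm70a (−0.69) kept their direction and call in the change in enrichment, whereas Timm21 (−0.23) lost the call and Uqcrb had 0.24 with no call. How far length acts on the cells or on the libraries was not tested.

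Other genes of the pathway, from lists that hold no member, were measured for 44 genes. In total RNA 29 of them fell and 5 rose (median −0.46), and in ribosome-bound RNA 28 fell and 6 rose (−0.41). In enrichment 14 fell and 10 rose (−0.02). Of all genes 35.8% fell and 34.5% rose in total RNA, 41.9% and 41.6% in ribosome-bound RNA and 27.7% and 28.4% in enrichment, so for enrichment the 44 genes lay near the table as a whole. Factors of mitochondrial DNA, its transcription, RNA handling and translation (13 measured of 36 listed) fell in total RNA in 10 genes. In enrichment 7 of the 13 gained and 1 lost. The largest gains were those of Supv3l1, a helicase of mitochondrial RNA (1.10), and Pnpt1, its partner nuclease (1.08). Of 13 measured genes of import, processing and chaperones (30 listed), 10 fell in total RNA, 6 lost enrichment and 0 gained it. The largest loss of that list was that of Hspe1, the small partner of the chaperonin Hspd1 (−1.63), and Hspd1 itself had −0.19 with no call. Over all pathway lists the next largest loss was that of Usmg5, a small ATP synthase protein kept with the assembly factors and electron carriers (−1.35). After the correction for length and GC content Usmg5 had 0.36 with no call. The 4 measured carriers and channels (Vdac1, Vdac2, Vdac3 and Slc25a5, of 6 listed) all fell in total RNA. Of the regulators, 6 of 12 were measured: in total RNA Gabpb1 and Yy1 rose (0.65 and 0.30) and Gabpa, Gabpb2, Nrf1 and Pprc1 had no call, and Gabpa, Gabpb1, Gabpb2 and Yy1 lost enrichment (−0.48 to −1.14). Of the remaining lists, 2 of 17 mitochondrial tRNA synthetases and 6 of 29 assembly factors and electron carriers were measured, with 1 and 4 falls in total RNA, and 0 genes of mitochondrial DNA were in the table.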

How the data were processed

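The authors mapped reads to mm10 with TopHat2 (at most 2 places and 2 mismatches), counted them per gene with htseq-count and divided each library by a DESeq2 size factor. The deposited signal values are these normalised counts, for 3160 genes kept by filters on expression and replicate agreement; versions and strand are not given in the sources used here. Every value was a whole multiple of 1 read (tolerance 0.001), and these reads were rescaled with trimmed-mean-of-M-values (TMM) factors over the libraries of each fit. Deposited columns of means, ratios and their log2 fold change were not used; 0 per-sample columns belonged to no sample.

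Limma (version 3.58.1, R 4.3.3; lmFit, eBayes with trend) was fitted to log2(normalised count + 1) over all genes, with Benjamini-Hochberg adjustment, threshold 0.05. This scale understates changes of low genes. The fits of ES enrichment and of ribosome-bound RNA left out ELA input replicate 1 (7 libraries); the other comparisons used all 8. Prior degrees of freedom were 154.6 and 30.74. The fits were tested on simulated data with changes placed in ELA Rpl10a-IP only. Changes in ELA input were not simulated. Count models were planned but not run, because a check of the deposited columns did not accept the recovered reads for all 8 libraries. That check took the lowest value of a column as 1 read, whereas the lowest gene held 1 to 82 recovered reads.

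The members and lists were chosen with earlier results of these data known. Some genes counted in the fits and lists are not reported one by one here. Named genes were the 3 largest rises and falls per comparison, the most abundant and most changed gene of each role, all genes of roles with 8 or fewer, and the 2 largest rises and falls among other pathway genes. Transcript and coding lengths are those of the GENCODE vM1 transcript with the longest coding sequence, and coordinates are RefSeq GRCm38.p6. Motif letters were set before their matches were seen.

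ELA input replicates differed by no more than counting noise over these filtered genes (chi-square over its degrees of freedom 0.957, against 6.04 to 27.2 in the other groups). They differ in title and depth and were counted as 2, though another label gives both inputs of a stage the number 1, and fits with either one alone are given below. Same-numbered libraries were taken as possible pairs from the sample titles. Their deviations correlated at −0.0246 to 0.504 over genes. Input and Rpl10a-IP of a number share a lysate by protocol (r = 0.170 in ES cells, 0.504 in ELA), so the block was also fitted within stage, an alternative chosen after seeing the data.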

Additional observations from a re-analysis of the deposited data

Results flagged for a closer look

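The change in ribosome enrichment differed between ES cells and ELA by the interaction test (limma, adjusted p under 0.05 over all genes) in 25 of the 43 genes, and for that reason 24 of them are given here. As 27.7% of all genes were called lower and 28.4% higher, the share of members called is near that of the whole table. Losses of more than 1 on the log2 scale were those of Ndufc1 (−1.96), Cox17 (−1.79), Ndufa7 (−1.76), Ndufb10 (−1.51), Atp5g1 (−1.49), Mrpl18 (−1.36), Mrpl12 (−1.30), Ndufb8 (−1.28), Atp5o (−1.09) and Uqcrb (−1.08). Smaller losses were those of Mrps25 (−0.98), Mrps21 (−0.95), Timm21 (−0.85), Mrpl51 (−0.77), Tomm70a (−0.69), Atp5d (−0.61) and Ndufs4 (−0.44). The call of Atp5d held in 7 of 15 alternatives and that of Ndufs4 in 11 of 16. With the replicate block and the correction for length and GC content, Uqcrb (0.24), Mrps21 (0.089) and Ndufs4 (0.072) turned sign with no call, and Timm21 (−0.23) and Atp5d (−0.21) had no call. Gains (7 given here) were those of Ndufa9 (1.88), Mrps30 (0.83), Ndufs1 (0.76), Atp5b (0.71), Ndufv1 (0.66), Uqcrc2 (0.63) and Mrps9 (0.45), whose call held in 11 of 16 alternatives. Tomm70a was the only loss with a coding sequence over 1000 bases, and every gain had one. Each value rests on 2 ELA input libraries with 4 to 248 and 6 to 548 reads per member, and the part of their depth in these differences was not tested.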

How the results depend on the processing

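Without the length correction, 34 of the 42 members given one by one kept their call in every alternative for the change in total RNA, 37 for ribosome-bound RNA, 34 for enrichment in ELA, 31 for the change in enrichment and 27 for enrichment in ES cells. The counts of members called moved by over 1.5 times in the last alone, from 20 to 13 with genes of a mean CPM of at least 50 (32 members tested) and 11 with 8 libraries. Leaving out 1 library at a time gave 11 to 23 there (13 without ES input replicate 1, 12 without ES Rpl10a-IP replicate 1, 11 without ES Rpl10a-IP replicate 2), 32 to 34 in ELA enrichment, 32 to 37 in total RNA, 34 to 37 in ribosome-bound RNA and 22 to 30 in the change in enrichment. Where a group was left with 1 library, it was assumed to vary like the others. Total reads, median-of-ratios and deposited size factors and pseudocounts of 0.1 and 5 changed no direction of a called member. The deposited factors were set within each fraction, so all inputs were shifted by 1 constant, a step chosen after seeing the data. The planned count models were not run.

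The replicate block gave 22, 35, 35, 37 and 28 members called in ES enrichment, ELA enrichment, total RNA, ribosome-bound RNA and the change in enrichment, against 20, 35, 35, 37 and 25. The block within stage gave 24, 35 and 28 for the 3 comparisons of enrichment. With the block and the correction for transcript length and GC content, these values turned their sign after a call, or passed the threshold with the other sign where they had no call before (other values without a call in either fit also turned). In ES enrichment they were Cox17 (0.033), Mrps21 (0.14), Ndufa6 (0.062), Ndufa7 (0.27), Ndufb10 (0.23), Ndufb8 (0.26) and Usmg5 (0.16). In ELA enrichment they were Cox7a2 (0.81), Cox7b (0.42), Mrpl13 (0.16), Mrpl46 (0.45), Mrps21 (0.22), Ndufa12 (0.31), Ndufa13 (0.0067), Ndufa6 (0.65), Timm21 (0.086), Uqcrb (0.63) and Usmg5 (0.51). In total RNA they were Mrpl18 (0.41), Mrps21 (0.45) and Ndufb8 (0.34). In ribosome-bound RNA they were Atp5b (0.21), Atp5c1 (0.19), Mrps21 (0.55), Mrps30 (0.49), Mrps9 (0.64), Ndufa6 (0.022), Ndufa9 (0.55), Ndufv1 (0.12) and Usmg5 (0.33). In the change in enrichment they were Cox7a2 (0.49), Cox7b (0.48), Mrps21 (0.089), Ndufa6 (0.60), Ndufs4 (0.072), Uqcrb (0.24) and Usmg5 (0.36). In the same fit 20 values without a call before passed the threshold with the same sign, and 22 called values kept their sign but lost the call. The cause of these differences was not tested.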
